A study of Mus musculus with 9 samples.

Results

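RNA of vascular tissue from mice with 1 disrupted copy of the gene for S-adenosylhomocysteine hydrolase (SAHH) was compared with RNA from mice wild type for it. The comparison took 6 of the 9 libraries of the series, 3 labelled SAHH-het (genotype ApoE-/-/SAHH+/-) and 3 labelled SAHH-WT (genotype ApoE-/-/SAHHWT). All 6 came, by their labels, from C57BL/6 mice aged 24 weeks that also lacked apolipoprotein E, and neither group received an agent. The remaining 3 libraries, labelled as heterozygous with betaine, entered the model only as a further source for the estimate of spread. The labels name the tissue as vascular and give no vessel or segment. The sources used here do not give how the SAHH and ApoE alleles were made. Nothing in the labels ties each library to its own animal, so p-values measure the spread between libraries only, and some of that spread may be technical.

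SAHH, encoded by Ahcy, splits S-adenosylhomocysteine into adenosine and homocysteine. S-adenosylhomocysteine is what remains of S-adenosylmethionine after a methyl group has been passed to DNA, RNA, protein or lipid, and it inhibits methyltransferases when it builds up. Apolipoprotein E carries lipoprotein remnants to their receptors in the liver, and mice without it keep remnants in plasma and are widely used as a model of atherosclerosis. An aorta is built of an endothelium, a medial layer of smooth muscle and elastic fibres, and an adventitia of fibroblasts and collagen, usually with brown and white fat around it, and lymph nodes, adrenal glands, heart and striated muscle lie nearby.

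Ahcy and Apoe are the genes that check the genotype labels. The 250 bases before their annotated starts are shown with the motifs searched for in capitals (RefSeq sequence, GRCm38.p6). The part of these windows in the level of either gene was not tested. Both genes are on the reverse strand, and the sequences read 5′ to 3′ along the gene. The Ahcy window is chr2:155074498-155074747 and the Apoe window is chr7:19699189-19699438.
Ahcy: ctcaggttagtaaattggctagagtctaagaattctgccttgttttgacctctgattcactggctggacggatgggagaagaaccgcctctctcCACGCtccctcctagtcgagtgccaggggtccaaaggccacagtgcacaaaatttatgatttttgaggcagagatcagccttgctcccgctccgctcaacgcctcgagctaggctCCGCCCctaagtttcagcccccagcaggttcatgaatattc
Apoe: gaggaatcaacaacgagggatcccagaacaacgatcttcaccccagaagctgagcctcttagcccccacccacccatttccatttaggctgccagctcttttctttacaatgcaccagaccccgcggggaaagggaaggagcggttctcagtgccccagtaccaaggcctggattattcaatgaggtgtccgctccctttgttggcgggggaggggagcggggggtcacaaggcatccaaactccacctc
The motifs were the GC box GGGCGG, the core of the xenobiotic response element GCGTG, the E-box CACGTG and the TATA box TATAAA, each on both strands. The Ahcy window held 1 GC box, 41 bases before the start, and 1 xenobiotic response core, 156 bases before it. The Apoe window held none of the 4. Of 32851 windows of the same length before mouse genes, 32.7% held the GC box, 28.2% the response core, 6.02% the E-box and 12.4% the TATA box, so none of these matches sets the windows apart.

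Values are FPKM (fragments scaled for exon length and depth, as the authors deposited them) for 54532 genes, and the recovered depth was 15837599 to 17381974 fragments per library over the 6. A gene was tested if it averaged at least 0.5 FPKM over the 6 libraries, which kept 15688. Differences are SAHH-het minus SAHH-WT on log2(FPKM + 0.5), a scale on which differences of low genes come out too small, and adjusted p-values are from limma with the Benjamini-Hochberg method over all genes tested. Rescaling each library to TPM moved the median difference of all genes by -0.29. Under it the medians of the contractile smooth muscle, aryl hydrocarbon receptor, glutathione S-transferase, stress-activated kinase, cholesterol synthesis, antioxidant and ribosomal protein lists, all below 0.29 as given later, turned negative, and under quantile normalization the fatty acid synthesis median of 0.38 became -0.15 and the kinase, antioxidant and ribosomal medians also turned negative. On the deposited scale the median difference of all genes tested was 0.01, the 10th percentile was -0.68 and the 90th percentile was 0.70.

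Ahcy (ENSMUSG00000027597, protein-coding, chromosome 2, 155059310 to 155074497, GRCm38) stood at 11.5, 7.17 and 7.98 FPKM in SAHH-WT libraries 1 to 3. SAHH-het libraries 1 to 3 held 3.48, 3.89 and 4.75 FPKM. Every library labelled SAHH-het was below every SAHH-WT library, and the mean was 0.454 of the SAHH-WT mean (4.04 ± 0.649 against 8.90 ± 2.32, SD, n = 3 each). The log2 difference was -1.03 (95% interval -1.51 to -0.55), with a limma adjusted p of 0.276. A two-sided exact permutation test gave p = 0.1, the smallest that 3 libraries against 3 allow. Every library labelled SAHH-het was thus low in the targeted gene, although the gene was not called over the 15688 tests. In the 3 betaine libraries, which carry the same heterozygous label, Ahcy measured 7.66, 9.70 and 8.63 FPKM. These values lay within the SAHH-WT range and above every library labelled SAHH-het. The part of betaine, or of the genotype label, in this level was not tested.

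Apoe (ENSMUSG00000002985, protein-coding, chromosome 7, 19696109 to 19699188), which all 6 mice lack by label, measured 2.91, 4.35 and 6.11 FPKM in the SAHH-WT libraries. The libraries labelled SAHH-het measured 149, 223 and 225 FPKM. Their mean was 44.6 times the SAHH-WT mean, and the 2 groups were far apart in every library (log2 difference 5.36, 95% interval 4.69 to 6.02, limma adjusted p = 0.000656). The Apoe level of the libraries labelled SAHH-het goes against their ApoE-/- label. The 3 betaine libraries, with the same genotype label, measured 5.51, 8.88 and 7.32 FPKM, near SAHH-WT. All directions below therefore compare libraries labelled SAHH-het with SAHH-WT libraries that also differ from them in Apoe, and the Ahcy genotype and the Apoe level cannot be told apart.

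**Figure D1:**
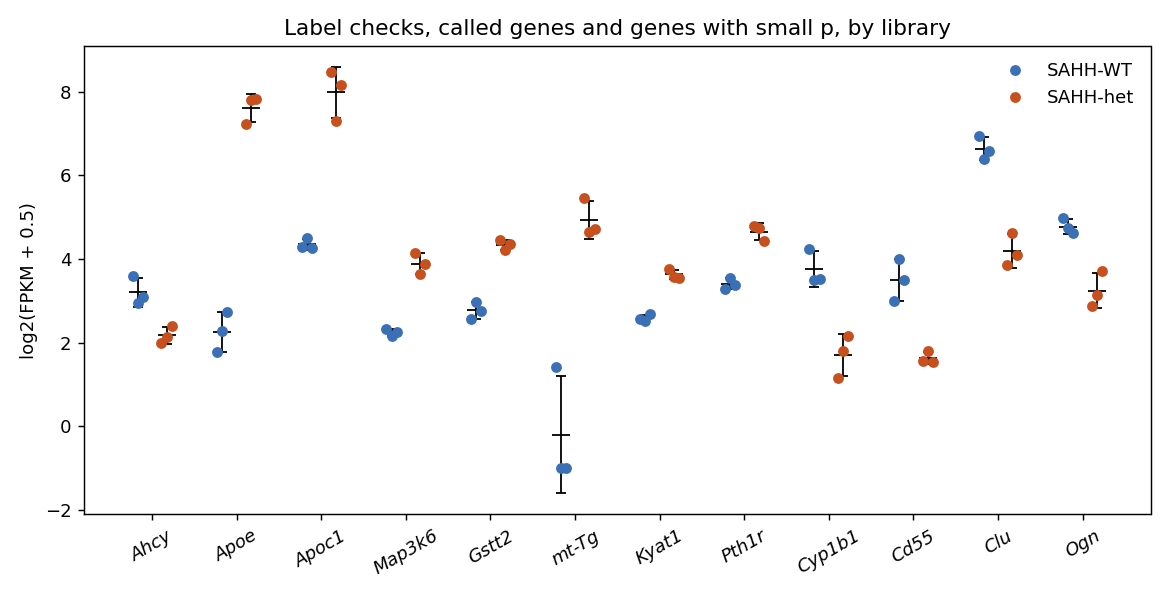
Level of 12 genes in each of the 3 SAHH-WT (blue) and 3 SAHH-het (orange) libraries on the log2(FPKM + 0.5) scale, with the mean and SD of each group in black. Apoe, Apoc1, Map3k6 and Gstt2 passed the limma test and the others did not, and the groups do not overlap for any of the 12.

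The 6 libraries held different tissues, and several stood apart from the rest of their group. SAHH-WT 1 held adrenal cortex. Its 10 cortex markers, the enzymes and regulators of steroid synthesis, summed to 10620 FPKM against 3.41 to 5.52 FPKM in the other 5 libraries. Hsd3b1, which makes the delta-4 steroids, measured 4239 FPKM in SAHH-WT 1 and 0 in the other 5. Cyp21a1, the 21-hydroxylase, at 2900 FPKM and Cyp11b1 at 936 FPKM were likewise at 0 in the other 5. The chromaffin markers Chga and Chgb, granins of the secretory granule, measured 769 and 765 FPKM there.

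Skeletal muscle was present in SAHH-het 1, SAHH-WT 1 and SAHH-het 2. The 11 skeletal muscle markers summed to 11045, 3013 and 713 FPKM in these libraries and to 3.83 to 17.7 FPKM in the other 3. Acta1, the actin of the skeletal sarcomere, measured 4564, 1120 and 350 FPKM there. Cardiac muscle was highest in SAHH-WT 2 and SAHH-WT 3, where the 8 cardiac markers summed to 949 and 308 FPKM against 5.18 to 30.4 FPKM in the other 4.

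Lymphoid markers were highest in SAHH-WT 2. The 10 B and plasma cell markers summed to 2327 FPKM there, 374.5 FPKM in SAHH-WT 3 and 69.3 to 153 FPKM in the other 4. SAHH-WT 3 stood apart most by Mup22, at 45.1 FPKM against at most 0.259 FPKM in any other library. It also stood apart by Spp1, osteopontin, at 153 FPKM against 0.325 to 7.38 FPKM, and by Gpnmb, a lipid-laden macrophage glycoprotein, at 31.8 FPKM against 0.278 to 1.20 FPKM. SAHH-het 2 was highest in the neutrophil list (1378 FPKM against 14.7 to 540 FPKM).

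Markers of the vessel wall were detected in all 6 libraries and were low beside those of fat. The contractile smooth muscle genes summed to 87.7 to 394 FPKM, and the brown fat markers to 516 to 13405 FPKM. Acta2, smooth muscle actin, stood at 37.8 to 127 FPKM. Myh11, the smooth muscle myosin heavy chain, measured 4.76, 7.17 and 13.2 FPKM in SAHH-WT and 9.82, 19.9 and 8.23 FPKM in SAHH-het. Tagln, a calponin-family protein of contractile smooth muscle, was low in all 6 libraries, at 0.182 to 1.05 FPKM. Of the 9 contractile smooth muscle genes tested, 6 were higher and 3 lower, none called and none without overlap, with a median difference of 0.17 that was -0.06 without SAHH-WT 2. In bulk RNA, fewer cells of a type and less RNA per cell cannot be told apart.

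**Figure D2:**
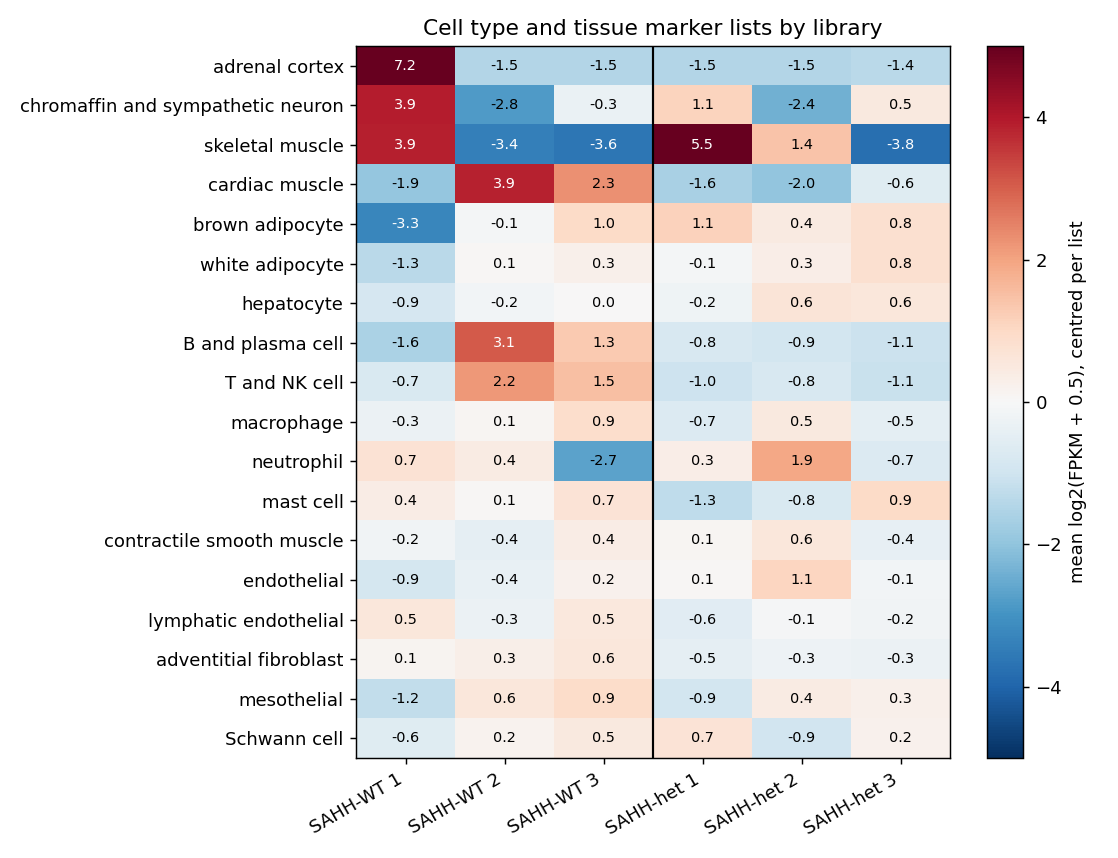
Mean log2(FPKM + 0.5) of each of 18 marker lists in the 6 libraries, minus the list's own mean over the 6, with red for higher and blue for lower. SAHH-WT 1 carries the adrenal markers and is highest for the chromaffin and sympathetic neuron markers, followed by SAHH-het 1 and SAHH-het 3. SAHH-het 1, SAHH-WT 1 and SAHH-het 2 carry the skeletal muscle markers. SAHH-WT 2 and SAHH-WT 3 are highest for the cardiac and lymphoid markers.

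Genotype was not the leading axis of these libraries. The first principal component, with 35.7% of the variance, put SAHH-WT 1 at -85.9 and the other 2 SAHH-WT libraries at 56.7 and 39.0, with SAHH-het between -36.5 and 15.2. The second, with 30.1%, placed the SAHH-WT libraries at -56.6, -51.8 and -4.28 and the SAHH-het libraries at 64.4, 10 and 38.3. SAHH-het 2 stood alone on the third, at 69.4, with 16.0% of the variance.

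Over all genes tested, limma called 4 genes (0.0255%) in the comparison, all 4 higher in the libraries labelled SAHH-het and 0 lower. An unadjusted p under 0.05 was reached by 1968 genes (12.5%), of which 1156 (7.37%) were higher and 812 (5.18%) lower. In 1308 genes (8.34%) every SAHH-het library was above every SAHH-WT library, and in 1297 genes (8.27%) every one was below. With a planned block for the replicate number in all 9 libraries, 1 gene was called, Apoe. With a block in the 2 groups only and the betaine libraries kept in the fit, an alternative that was not planned, 5 genes were called, 3 of them among the 4. With the block in the 6 libraries alone, 0 genes were called by limma, 1566 had an unadjusted p under 0.05, and the smallest adjusted p, that of Apoe, was 0.0568. limma with voom on the recovered fragments, with no block, called the same 4 genes. Leaving out SAHH-WT 1 raised the count to 9, and leaving out SAHH-WT 2 or SAHH-het 3 left 1, Apoe. Without SAHH-WT 3 or SAHH-het 1 the count was 2.

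Apoc1 (ENSMUSG00000040564, protein-coding, chromosome 7, 19689481 to 19692660), a small apolipoprotein of triglyceride-rich lipoproteins and a neighbour of Apoe, measured 19.1, 22.2 and 18.6 FPKM in SAHH-WT. The libraries labelled SAHH-het held 355, 158 and 286 FPKM, the lowest of them SAHH-het 2. The groups lay far apart, with a log2 difference of 3.63 (95% interval 2.96 to 4.30, limma adjusted p = 0.00801). It was called under 16 of 24 alternative settings, with adjusted p-values of 0.00151 to 0.354.

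Map3k6 (ENSMUSG00000028862, protein-coding, chromosome 4, 133240818 to 133252929), a stress-activated kinase also known as ASK2, measured 4.48, 3.98 and 4.27 FPKM in SAHH-WT. The libraries labelled SAHH-het measured 17.1, 12 and 14.3 FPKM, all above SAHH-WT, with a mean 3.41 times as high. The log2 difference was 1.65 (95% interval 1.28 to 2.01, limma adjusted p = 0.0242), and it was 1.52 at its smallest with 1 library left out. Its partner kinase Map3k5 did not pass the test, at 4.57, 10.1 and 7.61 FPKM against 7.92, 8.65 and 9.72 FPKM. Of the 14 stress-activated kinase genes tested, 7 were higher and 7 lower, Map3k6 alone was called, and the median difference was 0.01.

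Gstt2 (ENSMUSG00000033318, protein-coding, chromosome 10, 75831114 to 75837424), a theta-class glutathione S-transferase, measured 5.45, 7.38 and 6.31 FPKM in SAHH-WT and 21.5, 18.2 and 19.9 FPKM in SAHH-het. The SAHH-het values spread over less than their distance from SAHH-WT (log2 difference 1.57, 95% interval 1.21 to 1.93, limma adjusted p = 0.0242). The other 13 transferase genes tested included no call, and 8 were higher and 5 lower, with a median of 0.27 for all 14. The theta-class neighbours Gstt1 (log2 difference 0.33) and Gstt3 (0.15) overlapped between groups. Ddt, the D-dopachrome tautomerase gene 57.7 kb from Gstt2, measured 8.69, 17.2 and 41.1 FPKM in SAHH-WT and 52.1, 52.6 and 65.8 FPKM in SAHH-het, without overlap and uncalled (log2 difference 1.59). Map3k6 was called under 12 and Gstt2 under 10 of the 24 alternative settings, with adjusted p-values of 0.00437 to 0.495 and 0.0158 to 0.495.

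Genes around Apoe were higher more often than lower, and so were genes on the rest of chromosome 7. Of 51 other genes tested within 1000 kb of it, 37 were higher and 14 lower, 8 (15.7%) did not overlap and were higher, and 0 were lower without overlap. On the rest of chromosome 7, 692 of 1134 genes tested were higher and 442 lower, and without overlap 128 (11.3%) were higher and 56 lower. Over all genes tested, 50.8% were higher and 8.34% were higher without overlap. Apoc1 was the only one of the 51 to pass the limma test. Bcam, a laminin receptor of endothelium and red cells 56.9 kb from Apoe, measured 21.5, 21.7 and 32.9 FPKM in SAHH-WT and 49.7, 83.4 and 42.1 FPKM in SAHH-het (log2 difference 1.15, limma adjusted p = 0.298). Nectin2, an adhesion molecule 17.5 kb away, measured 14.8, 12.6 and 19.5 FPKM against 25.8, 27 and 23.4 FPKM (0.70). Both were higher in all 3 SAHH-het libraries. Tomm40, the pore of the outer mitochondrial membrane and the nearest gene, overlapped at the edge, at 11.1, 11.2 and 17.7 FPKM against 26.1, 17.7 and 26.5 FPKM (0.80).

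**Figure D3:**
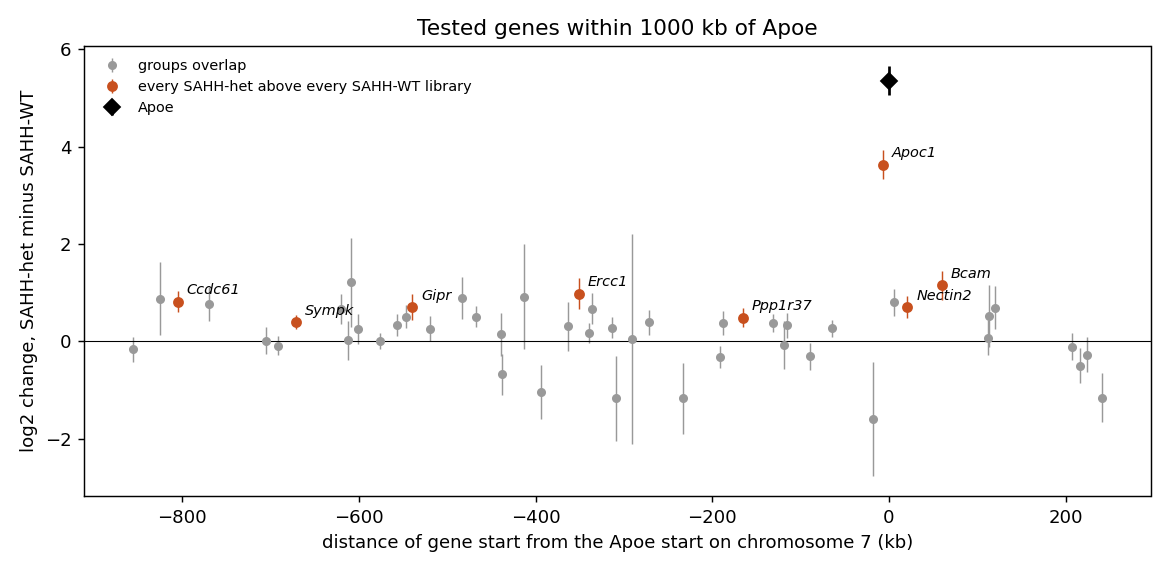
Log2 difference with its standard error against distance from the Apoe start for Apoe (black) and the 51 other genes tested within 1000 kb, orange where every SAHH-het library was above every SAHH-WT library. Apoc1 at 3.63 lies next to Apoe at 5.36, and the other 7 genes without overlap lie at 1.15 or below.

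Beyond the calls, 6 more genes completed the 10 with the smallest p among those higher without overlap, and none passed the test. The tRNA gene mt-Tg is described with the mitochondrial genes. Cpt1b, the muscle and brown fat form of the enzyme that commits fatty acids to mitochondria, measured 0.262, 0.529 and 0.730 FPKM in SAHH-WT and 2.30, 3.70 and 2.82 FPKM in SAHH-het. Kyat1, a kynurenine aminotransferase that also works as a cysteine conjugate beta-lyase, measured 5.40, 5.28 and 5.91 FPKM against 13.1, 11.4 and 11.2 FPKM. Pth1r, the receptor of parathyroid hormone and its related peptide, measured 9.25, 11.2 and 9.96 FPKM against 27.1, 26.4 and 21.2 FPKM. The groups did not overlap for any of the 3, and the log2 differences were 1.78, 1.04 and 1.25, each with a limma adjusted p of 0.165. Fam57b, a ceramide synthase family member, and Inafm1 had differences of 1.72 and 1.22 at the same adjusted p. By size of change the list also held Cyp2b10, a xenobiotic-metabolising cytochrome P450, at 0.0464, 1.58 and 6.39 FPKM against 20.5, 8.67 and 33.1 FPKM. It held Saa3, an acute-phase serum amyloid A made by macrophages and fat, at 0.358, 1.01 and 2.71 FPKM against 12.4, 35.0 and 6.45 FPKM.

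No gene was called lower, and the values of those with the smallest p were as follows. Cyp1b1, a cytochrome P450 of smooth muscle and fibroblasts that is a target of the aryl hydrocarbon receptor, measured 18.5, 10.8 and 11.1 FPKM in SAHH-WT and 1.74, 3.01 and 3.96 FPKM in SAHH-het (log2 difference -2.05). Cd55, which speeds the decay of complement convertases on cell surfaces, measured 7.52, 15.5 and 10.7 FPKM against 2.44, 2.99 and 2.40 FPKM (-1.87). Clu, the chaperone clusterin, measured 122, 83.1 and 95.3 FPKM against 13.9, 24.2 and 16.6 FPKM (-2.44). The highest SAHH-het value of each was under the lowest SAHH-WT value by a wide margin, yet each had a limma adjusted p of 0.165. Ogn, osteoglycin of the adventitial matrix, stood at the same adjusted p, at 31.1, 26.1 and 23.9 FPKM against 6.91, 8.29 and 12.7 FPKM (-1.53). Ctsh, a lysosomal cysteine protease (-1.79), Fbxo33, an F-box protein (-0.76), Trbj2-3, a T cell receptor joining segment (-2.78), and Ly6d, a surface protein of B lineage and epithelial cells (-3.68), followed with an adjusted p of 0.239. Trbj2-3 has 49 exon bases, so its FPKM rest on few fragments. Snord42b, a small nucleolar RNA (-3.15, adjusted p = 0.239), and CR974586.5, a gene on an unplaced scaffold (-2.91, adjusted p = 0.193), completed the genes of smallest p. By size of change the lowest were Glycam1, described with the lymphoid genes, and 4 immunoglobulin genes led by Igkv6-32, none of them called.

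The low Cyp1b1 stood against other genes of the aryl hydrocarbon receptor. The 250 bases before its start (chr17:79715062-79715311, reverse strand, GRCm38.p6, read 5′ to 3′ along the gene) are shown with a GC box, 84 bases before the start, and a xenobiotic response core, 76 bases before it, in capitals.
Cyp1b1: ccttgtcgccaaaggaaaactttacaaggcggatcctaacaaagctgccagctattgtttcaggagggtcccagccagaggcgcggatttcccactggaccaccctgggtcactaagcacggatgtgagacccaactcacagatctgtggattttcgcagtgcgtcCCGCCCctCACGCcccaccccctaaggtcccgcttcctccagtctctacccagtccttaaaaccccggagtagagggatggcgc
Cyp1a1, the classic target of the receptor, measured 7.87, 14.5 and 33.0 FPKM in SAHH-WT and 47.9, 25.9 and 32 FPKM in SAHH-het, with overlap and a log2 difference of 1.10. Ahr, the receptor itself, measured 1.25, 3.11 and 5.55 FPKM against 5.04, 11.9 and 5.99 FPKM (1.18). Of 6 genes of the list that were tested, 4 were higher and 2 lower, 0 were called, and the median was 0.24.

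The methionine cycle as a whole showed no pattern like that of Ahcy. Of its 14 genes tested with transsulfuration and the small-molecule methyltransferases, 5 were higher and 9 lower, with 0 called and a median of -0.14. The groups did not overlap for 2 of them, both lower, against 8.27% of all genes. Besides Ahcy the second without overlap was Mtr, methionine synthase, at 2.93, 4.41 and 2.76 FPKM in SAHH-WT and 2.38, 2.59 and 2.37 FPKM in SAHH-het (-0.37). Mat2a, which makes S-adenosylmethionine, was nearly level, at 48.0, 44.6 and 37.3 FPKM against 37.5, 39.5 and 42.4 FPKM. Ahcyl1, a relative of Ahcy that regulates calcium release, overlapped between groups (0.44). Ada, adenosine deaminase, which removes a product of SAHH, had a difference of -0.61 with overlap.

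Folate and methyltransferase genes likewise included 0 calls. Of 11 folate genes tested, 3 were higher and 8 lower, with a median of -0.15 that was 0.02 without SAHH-WT 1. The groups did not overlap for 2 of these folate genes, both lower, against 8.27% of all genes. Mthfd2, the mitochondrial folate enzyme of growing cells, was lower without overlap, at 2.97, 2.96 and 3.24 FPKM against 2.28, 1.85 and 1.46 FPKM (-0.60). Of 13 DNA and histone methylation genes tested, 3 were higher and 10 lower and 0 were without overlap, with a median of -0.27. Dnmt1, the maintenance DNA methyltransferase, measured 5.60, 5.39 and 3.62 FPKM in SAHH-WT and 1.82, 5.50 and 2.64 FPKM in SAHH-het.

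MHC class II genes, which present antigen to helper T cells, were lower in every library labelled SAHH-het. All 7 genes tested were lower without overlap, against 8.27% of all genes, with a median of -1.86, and 0 were called. Cd74, the invariant chain, measured 217, 1100.1 and 586 FPKM in SAHH-WT and 84.7, 129.5 and 133 FPKM in SAHH-het (-2.19, limma adjusted p = 0.32). H2-Aa, a class II alpha chain, measured 73.0, 343 and 189 FPKM against 35.9, 33.9 and 45.3 FPKM (-2.13). SAHH-WT 2 was highest in each and SAHH-WT 1 nearest to SAHH-het. Ciita, the transactivator of these genes, measured 0.519, 7.28 and 3.01 FPKM against 0.319, 0.481 and 0.485 FPKM. The list's median was -1.35 if SAHH-WT 2 was left out and -2.50 if SAHH-WT 1 was, and with the B and plasma cell markers as a covariate it was -1.02.

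T and natural killer cell markers followed the same libraries. All 10 were lower, 6 of them without overlap against 8.27% of all genes, with 0 calls. The median of -1.92 was -0.73 with the B and plasma cell markers as a covariate. Trbc2, a constant segment of the T cell antigen receptor, stood at 4.39, 47.4 and 27.3 FPKM in SAHH-WT and 1.25, 3.07 and 1.45 FPKM in SAHH-het. Il7r, the interleukin-7 receptor of resting T cells, measured 0.726, 6.96 and 4.37 FPKM against 0.248, 0.336 and 0.503 FPKM. The summed list was 11.9, 133 and 78.9 FPKM in SAHH-WT against 7.14 to 11.5 FPKM in SAHH-het, so SAHH-WT 1 lay close to the SAHH-het range. All 10 B and plasma cell markers were lower as well, 1 of them without overlap against 8.27% of all genes, and the median of -1.66 was -0.64 without SAHH-WT 2.

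Antigen receptor segments were 4 of the 7 genes found in 1 group only. No gene was at 1 FPKM or more in every SAHH-het library and under 0.1 FPKM in every SAHH-WT library, and 7 showed the reverse. The highest was Glycam1, a mucin of lymph node venules and mammary gland, at 13.0, 37.1 and 108 FPKM in SAHH-WT (567, 1421 and 3643 fragments) and at 0, 1 and 0 fragments in SAHH-het. Of the others, Igkv8-16 and Igkv4-61 are immunoglobulin variable segments, Trbj2-3 and Trbj2-6 are T cell receptor joining segments, H2-M2 is a nonclassical MHC gene, and Gm44174 is a long noncoding RNA. Variable segments share sequence with one another, so values of single segments are uncertain. Trbj2-3, Trbj2-6 and Gm44174 have 49, 48 and 141 exon bases, so their FPKM rest on few fragments and their absence from SAHH-het is uncertain. Cxcl13, the chemokine that draws B cells into follicles, measured 4.14, 181 and 51.4 FPKM against 3.71, 23.9 and 13.2 FPKM. Ltb, lymphotoxin beta, measured 1.88, 41.8 and 20.4 FPKM against 3.67, 5.98 and 1.37 FPKM, so that both overlapped through SAHH-WT 1. Cxcl13 and Ltb were picked with their values in view. The part of lymphoid tissue in the lower MHC class II and T cell levels was not tested beyond these values.

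Other immune genes did not share that pattern. Of 10 MHC class I presentation genes, 4 were higher and 6 lower (median -0.01, from -0.49 to 0.32 with 1 library left out), and of 12 interferon-stimulated genes 4 were higher and 8 lower (median -0.22), with 0 calls and 0 genes without overlap in both lists. SAHH-het 2 was the highest library for Isg15, a ubiquitin-like interferon target, at 69.7 FPKM against 7.44 to 20.4 FPKM, and the interferon median was -0.87 without it, 0.17 without SAHH-het 1 and 0.10 without SAHH-het 3. Of 11 macrophage markers, 2 were higher and 9 lower, with a median of -0.37, none without overlap. Of 8 neutrophil markers 6 were higher, led by S100a8, a calcium-binding alarmin, at 104, 77.9 and 4.45 FPKM against 204, 525 and 48.4 FPKM, and the median of 1.18 dropped to 0.26 if SAHH-het 2 was left out and to 0.22 if SAHH-WT 3 was.

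Complement genes leaned lower. Of 11 tested, 9 were lower, 5 of these without overlap against 8.27% of all genes, with a median of -0.64 and 0 calls. C1ra, a protease of the classical pathway, measured 18.1, 22.9 and 14.4 FPKM in SAHH-WT and 5.51, 14.3 and 12 FPKM in SAHH-het (-0.85). Cd55 and Clu, described above, and C2 (-0.97) were also without overlap. C3, the central component, overlapped, at 112, 386 and 431 FPKM against 104, 483 and 278 FPKM, and C4b was higher with overlap (0.81).

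Collagen genes were mostly lower in the libraries labelled SAHH-het. Of 14 collagen genes tested, 12 were lower, 8 of them without overlap against 8.27% of all genes, with a median of -0.91 and 0 calls. Col1a2, of fibrillar type I collagen, measured 9.98, 12.4 and 24.7 FPKM in SAHH-WT and 3.61, 3.86 and 5.54 FPKM in SAHH-het (-1.66, limma adjusted p = 0.249). Col6a3, of beaded microfibrils, measured 3.31, 4.51 and 4.33 FPKM against 1.87, 2.26 and 2.18 FPKM (-0.80). SAHH-WT 3 was the highest library for both type I chains, for Col3a1 and for Col5a2, and the list's median was -0.71 without it. The basement membrane chains Col4a1 and Col4a2 were the 2 that were higher (0.06 and 0.33), with SAHH-het 2 the highest library for both. Summed over the list, the level overlapped, at 182, 199 and 319 FPKM in SAHH-WT and 101, 295 and 140 FPKM in SAHH-het.

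Proteoglycans, elastic fibre genes and fibroblast markers went the same way. Of 9 small leucine-rich proteoglycan genes 7 were lower, 3 without overlap against 8.27% of all genes, with a median of -0.82 that was -0.53 without SAHH-het 1, among them Bgn, biglycan, at 48.0, 28.9 and 40.0 FPKM against 12, 18.4 and 15.8 FPKM (-1.30). Prelp and Podn were higher with overlap. Of 11 elastic fibre and lysyl oxidase genes 10 were lower, 3 without overlap against the same 8.27%, with a median of -0.75 that was -0.26 without SAHH-WT 3. Loxl2, which cross-links collagen, measured 3.22, 2.26 and 3.85 FPKM in SAHH-WT and 1.02, 1.16 and 0.979 FPKM in SAHH-het (-1.19). Eln, elastin, overlapped at 3.36, 4.48 and 21.1 FPKM against 3.26, 7.62 and 5.41 FPKM.

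Of 10 adventitial fibroblast markers 9 were lower, 5 without overlap against 8.27% of all genes, with a median of -0.74. Lum, lumican, measured 13.2, 14.8 and 29.5 FPKM in SAHH-WT and 6.35, 4.23 and 7.58 FPKM in SAHH-het. Dpt, dermatopontin, measured 24.8, 41.6 and 34.0 FPKM against 14.0, 17.9 and 15.9 FPKM. Pdgfra, the receptor that marks fibroblasts, was lower without overlap too (-1.49), while the abundant markers Gsn (-0.37) and Ly6a (0.69) overlapped. Summed over the list, which is dominated by these 2, the level ranged from 512 to 745 FPKM across SAHH-WT and from 468 to 926 FPKM across SAHH-het. The medians of the collagen, proteoglycan and fibroblast lists kept their sign with any 1 of the 6 libraries left out, and the part of fibroblast number in them was not tested.

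Matrix proteases and their inhibitors were mostly lower, with exceptions. Of 12 tested, 3 were higher and 9 lower, with 0 calls and a median of -0.53 that was -0.12 without SAHH-WT 3. Without overlap, 1 was higher, against 8.34% of all genes, and 2 were lower, against 8.27%. Timp4, an inhibitor abundant in heart and fat, measured 4.42, 7.40 and 11.6 FPKM in SAHH-WT and 33.5, 48.5 and 30.1 FPKM in SAHH-het (2.25, limma adjusted p = 0.165). Timp2, an inhibitor of the stroma, measured 46.0, 53.5 and 58.4 FPKM against 26.8, 28.1 and 35.7 FPKM (-0.80, limma adjusted p = 0.28). The groups did not overlap for either, in opposite directions. Mmp14, a membrane-bound collagenase, was lower without overlap (-0.93), and the macrophage elastase Mmp12 overlapped (-1.09).

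Endothelial markers leaned higher. Of 12 tested, 11 were higher, 4 without overlap against 8.34% of all genes, with a median of 0.83 and 0 calls. Egfl7, a secreted factor of endothelium, measured 20.1, 24.4 and 27.7 FPKM in SAHH-WT and 62.4, 83.3 and 31.1 FPKM in SAHH-het (1.18). Sox17, a transcription factor of arterial endothelium, measured 3.56, 3.87 and 4.84 FPKM against 8.17, 12.1 and 5.97 FPKM. Nos3, the endothelial nitric oxide synthase, measured 3.47, 6.46 and 8.52 FPKM against 10.5, 17.4 and 9.89 FPKM. SAHH-het 2 was the highest library in all 3, and the list's median was 0.42 without it and 0.46 without SAHH-WT 1. It was 0.34 with the brown adipocyte markers as a covariate. Of 10 endothelial adhesion and coagulation genes 4 were higher and 6 lower, with a median of -0.10. Vcam1, an adhesion molecule of inflamed endothelium, had a difference of -1.28 with overlap, and Tfpi, the inhibitor of the tissue factor pathway, was lower without overlap (-1.36). Gpihbp1, which holds lipoprotein lipase on capillary endothelium, was higher without overlap, at 16.8, 30.9 and 44.5 FPKM against 101, 193 and 71.0 FPKM (1.95).

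Energy metabolism genes were higher together, and the size depended on SAHH-WT 1. All 20 nuclear-encoded respiratory chain genes were higher, 4 without overlap against 8.34% of all genes, with a median of 1.01 and 0 calls. Cox5b, a cytochrome c oxidase subunit, measured 90.5, 152 and 244 FPKM in SAHH-WT and 688, 341 and 500 FPKM in SAHH-het (1.70). Ndufa1, of complex I, measured 160, 303 and 518 FPKM against 1134, 674 and 820 FPKM (1.55). The median was 0.52 without SAHH-WT 1 and 0.26 with the brown adipocyte markers as a covariate. All 12 fatty acid oxidation genes were higher, none without overlap, with a median of 0.87 that was 0.14 without SAHH-WT 1 and -0.11 with that covariate. SAHH-WT 1 held the lowest value of each list's sum, 3087 FPKM against 7413 to 16756 FPKM for the respiratory chain and 719 FPKM against 2260 to 6498 FPKM for fatty acid oxidation.

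Brown fat markers differed most in the same library. All 10 were higher, with a median of 1.91 that was 0.37 without SAHH-WT 1, and they summed to 516, 4148 and 10476 FPKM in SAHH-WT and to 6347 to 13405 FPKM in SAHH-het. Ucp1, the uncoupling protein of brown fat, measured 18.0, 1267 and 5219 FPKM in SAHH-WT and 2626, 1600.4 and 2409 FPKM in SAHH-het, so that SAHH-WT 3 was the highest of all. Cpt1b and Cox8b were the 2 markers without overlap, against 8.34% of all genes. Of 10 white fat markers 8 were higher, with a median of 0.80 that was 0.26 without SAHH-WT 1. The part of fat content in the respiratory chain and fatty acid oxidation genes was not tested beyond these values.

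Lipid genes beyond Apoe and Apoc1 included no call. Of 15 lipoprotein and efflux genes tested, 10 were higher and 5 lower, with 2 calls (Apoe and Apoc1). Without overlap, 5 were higher, Apoe and Apoc1 among them, against 8.34% of all genes, and 1 was lower, against 8.27%. The median of 0.51 was 0.26 without SAHH-WT 1, 0.27 with the brown adipocyte covariate and 0.21 after TPM rescaling. Abca1, the cholesterol exporter, was lower without overlap, at 22.5, 19.6 and 24.6 FPKM in SAHH-WT and 9.43, 16.6 and 18.5 FPKM in SAHH-het (-0.61). Nr1h2, the liver X receptor beta, was higher without overlap, at 21.3, 21.1 and 19.8 FPKM against 26.6, 33.8 and 29.1 FPKM (0.51). Cholesterol synthesis (7 of 13 higher, median 0.19) and fatty acid synthesis (7 of 10 higher, median 0.38) included 0 calls. Both medians turned with 1 library left out, to -0.17 for cholesterol and -0.28 for fatty acid synthesis without SAHH-het 3, and the latter was 1.16 without SAHH-het 2. SAHH-het 2 was lowest for Scd1, the stearoyl-CoA desaturase, at 435 FPKM against 2065 to 7478 FPKM. Mlxipl, the carbohydrate response factor ChREBP, was the single synthesis regulator without overlap, at 16.2, 38.1 and 28.1 FPKM against 64.5, 82.8 and 63.7 FPKM (1.41).

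**Figure D4:**
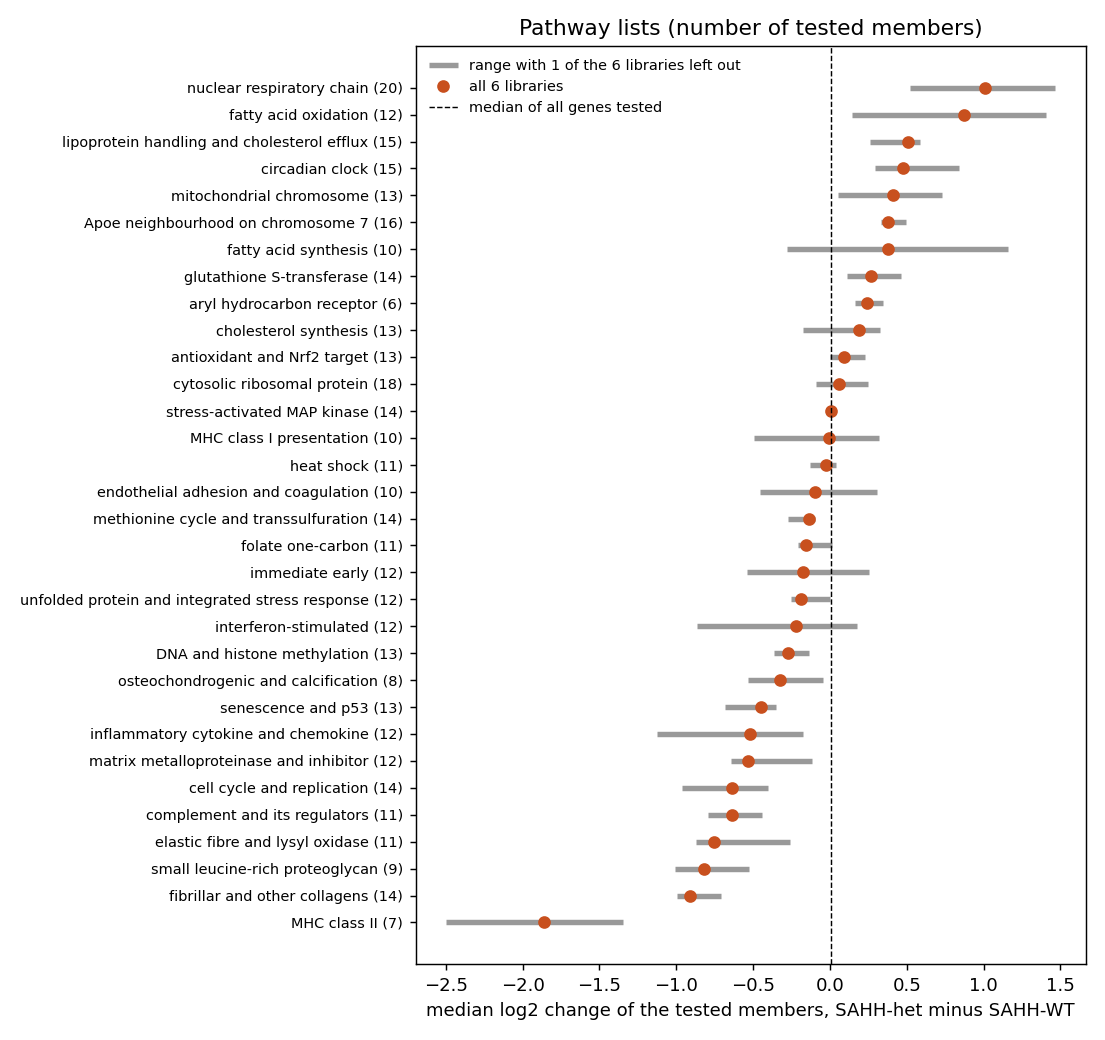
Median log2 difference of the tested members of 32 pathway lists (orange), the range of that median with 1 of the 6 libraries left out (grey bars) and the median of all genes tested (dashed line). MHC class II lies lowest at -1.86 and the nuclear respiratory chain highest at 1.01.

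Of 34 genes tested on the mitochondrial chromosome, those without overlap between the groups lay in 1 run. Over all genes tested, 8.34% were higher without overlap. From position 7013 to 9875 the genes mt-Co2, mt-Atp8, mt-Atp6, mt-Co3, mt-Tg, mt-Nd3 and mt-Tr all lay higher in every library labelled SAHH-het than in every SAHH-WT library, with log2 differences of 1.5, 2.41, 1.99, 1.22, 5.14, 1.72 and 2.64. None was called, and mt-Tg was nearest at a limma adjusted p of 0.0598. On either side, mt-Co1 (-0.17), mt-Nd2 (0.03), mt-Nd4l (-0.02), mt-Nd4 (0.46) and mt-Nd5 (-0.09) overlapped. mt-Tg, the mitochondrial glycine tRNA, is shown as the gene of the run with the largest difference (GENCODE M21 sequence, GRCm38, chrM:9391-9458, forward strand).
mt-Tg: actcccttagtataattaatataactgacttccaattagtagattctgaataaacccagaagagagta
It had 3, 0 and 0 fragments in SAHH-WT and 41, 30 and 26 fragments in SAHH-het. In each of the 3 betaine libraries mt-Tg measured 0 FPKM. mt-Atp8, an ATP synthase subunit, had 4, 12 and 11 fragments against 23, 70 and 56 fragments. Both were therefore thin, while mt-Co2 measured 496, 853 and 1531 FPKM against 3899, 1565 and 2378 FPKM.

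The same run has copies in the nuclear genome, on chromosome 1 between 24611535 and 24616197, annotated as 7 pseudogenes. The transcripts of Gm28661, Gm10925 and Gm28437 matched mt-Co2, mt-Atp6 and mt-Co3 with 0 mismatches over 681, 678 and 783 bases, and Gm28438 matched mt-Nd3 with 1 mismatch over 345 bases. Reads of these genes cannot be assigned to 1 of the 2 copies where the copies do not differ, so their separate values are uncertain. The tRNA genes mt-Tg and mt-Tr were not compared with the chromosome 1 sequence, and the same limit may hold for them. In the deposited values, mt-Co2 held 54.7 to 66.1% of the fragments of its pair over the 6 libraries. mt-Atp6 held 51.9 to 53.6% in SAHH-WT and 62.3 to 76.1% in SAHH-het, and mt-Nd3 held 24.5 to 64.9% and 67.9 to 71.8%, so the split itself differed between the groups without overlap. mt-Co1 held 98.3 to 99.5% of its pair and mt-Nd4 99.0 to 99.7%, and their copies cover part of the gene. Summed over both copies, the log2 differences were 1.43 for mt-Co2, 1.56 for mt-Atp6, 1.09 for mt-Co3 and 0.95 for mt-Nd3, and mt-Atp6 alone kept the groups apart. For mt-Co1, mt-Nd4l and mt-Nd4 the sums differed by -0.14, -0.18 and 0.46. The sources used here do not say how reads that match both copies were counted, and its part in the differences was not tested.

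**Figure D5:**
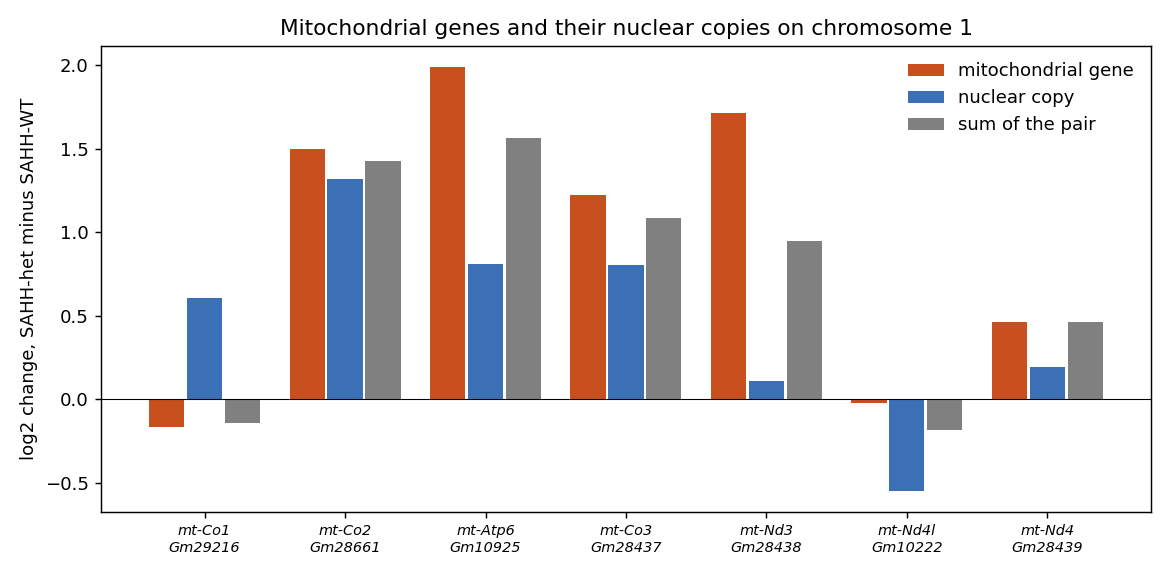
Difference of the group means of log2(FPKM + 0.5), 3 libraries per group, for 7 mitochondrial genes in chromosome order (orange), the nuclear copy of each on chromosome 1 (blue) and the sum of the pair (grey), with no error drawn. The middle genes from mt-Co2 to mt-Nd3 lie between 1.22 and 1.99, and mt-Co1, mt-Nd4l and mt-Nd4 lie between -0.17 and 0.46.

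Of 15 clock genes tested, 12 were higher and 3 lower, 2 higher without overlap against 8.34% of all genes, with 0 calls. The median of 0.47 was 0.84 without SAHH-het 2 and 0.30 without SAHH-WT 3. The 3 lower genes were the activators Arntl (-0.98), Npas2 (-0.94) and Clock (-0.37), all with overlap. Tef, an output factor of the clock, measured 11.9, 12 and 13.4 FPKM in SAHH-WT and 51.1, 17.3 and 40.8 FPKM in SAHH-het (1.38). Per3, of the period repressors, measured 2.04, 2.64 and 1.60 FPKM against 7.66, 2.69 and 8.27 FPKM (1.26). SAHH-het 2 lay next to SAHH-WT for both, and for Arntl it was at 2.89 FPKM while SAHH-het 1 and SAHH-het 3 were at 0.356 and 0.552 FPKM against 1.94 to 2.81 FPKM in SAHH-WT. The sources used here do not give the time of day of sampling.

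Stress genes did not move as a block. Of 12 genes of the unfolded protein and integrated stress response, 5 were higher and 7 lower. Of these, 2 were higher and 3 lower without overlap, against 16.6% of all genes in either direction. Hspa5, the chaperone BiP, was lower, at 94.8, 93.2 and 99.7 FPKM in SAHH-WT and 66.4, 68.8 and 69.4 FPKM in SAHH-het (-0.49). Ddit3, the stress factor CHOP, was higher, at 14.2, 11.7 and 17.2 FPKM against 25.4, 19.7 and 19.3 FPKM (0.57). Trib3, a pseudokinase induced with it, was higher without overlap too (1.01). The heat shock list had a median of -0.03, the immediate early list of -0.17 and the antioxidant list of 0.09, with 0 calls in each. The immediate early median was 0.25 without SAHH-WT 1 and 0.38 with the brown adipocyte markers as a covariate. Within them Myc was lower without overlap, at 12.1, 7.53 and 4.46 FPKM against 2.72, 3.21 and 2.76 FPKM (-1.23), and Sod1, cytosolic superoxide dismutase, was higher without overlap (0.68).

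Growth arrest and proliferation genes leaned lower side by side. Of 13 senescence and p53 genes, 12 were lower, 3 without overlap against 8.27% of all genes, with a median of -0.45. Cdkn2a, the locus of p16 and p19, measured 2.89, 1.43 and 1.18 FPKM in SAHH-WT and 0.741, 0.525 and 0.229 FPKM in SAHH-het (-1.19). All 14 cell cycle genes were lower and all overlapped, with a median of -0.64. Mki67, a marker of cycling cells, measured 0.809, 4.41 and 1.79 FPKM against 0.424, 1.86 and 0.373 FPKM, so that SAHH-WT 2, the library with most lymphoid RNA, was highest. With the B and plasma cell markers as a covariate the cell cycle median was -0.20 and the senescence median -0.57. The 18 cytosolic ribosomal protein genes split 9 and 9 (median 0.06).

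The remaining lists were short or mixed, with 0 calls in each. Of 12 cytokine and chemokine genes 4 were higher and 8 lower, with a median of -0.52 that was -0.17 without SAHH-het 3 and -1.12 without SAHH-het 2. Of 8 osteochondrogenic and calcification genes 3 were higher and 5 lower, and Spp1 was lower without overlap (-3.24, and -1.59 without SAHH-WT 3). Mast cell markers had a median of -0.87 over 6 genes, lymphatic endothelial markers of -0.50 over 5, Schwann cell markers of -0.20 over 8 and mesothelial markers of -0.18 over 8. With 1 library left out these 4 medians ran from -1.60 to -0.40, from -0.86 to -0.25, from -0.60 to 0.28 and from -0.92 to 0.33. Of the 8 hepatocyte markers 2 passed the filter, and both were higher.

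Many large differences rested on 1 library. Of 677 genes higher by a log2 difference of at least 1, 144 (21.3%) fell under 0.5 when 1 library was left out, and of 912 genes lower by as much, 276 (30.3%) did. Leaving out SAHH-WT 1 did so for 156 of the lower and 64 of the higher genes, SAHH-WT 2 for 95 of the lower and SAHH-het 1 for 50 of the higher. Each of the other libraries did so for at most 22 genes in a direction. There were 107 genes at least 8 times higher in SAHH-WT 1 than in any of the other 5 libraries, and 47 in SAHH-WT 2, led by the immunoglobulin segments Ighd4-1, Ighv3-8 and Ighv5-15. SAHH-WT 3 had 6 and SAHH-het 1 had 4, among them the microRNA genes Mir6941 and Mir133a-2. SAHH-het 2 had 1 (Chil3, a chitinase-like protein of myeloid cells, at 121 FPKM) and SAHH-het 3 had 0. The adrenal cortex median went from -3.11 to 0.00 without SAHH-WT 1, and the skeletal muscle median from 2.15 to 0.03 without SAHH-het 1. The cardiac median of -3.12 was -1.77 without SAHH-WT 2. Apoe, Apoc1, Map3k6 and Gstt2 kept log2 differences of at least 5.11, 3.39, 1.52 and 1.47 whichever library was left out. Their calls were less stable, and only Apoe of these genes stayed called without SAHH-WT 2, without SAHH-WT 3 or without SAHH-het 3. In the 3 betaine libraries Apoc1 measured 21.8 to 28.6 FPKM, Map3k6 5.47 to 5.99 FPKM and Gstt2 7.05 to 8.13 FPKM, all below the lowest SAHH-het library.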

How the data were processed

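The deposited values are FPKM per gene and library, normalized by the authors for exon length and depth, with no pooling of replicates. Reads were paired and aligned with HISAT2 2.0.5 to mm10, per the submitters' processing notes and the series design text, which also names DESeq2 1.20.0 for the authors' own comparisons. The sources used here do not give the read counter, the annotation or how RNA was selected.

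Libraries were grouped by their genotype labels. Genes that averaged at least 0.5 FPKM over the 6 libraries were tested on log2(FPKM + 0.5) with limma 3.58.1 (eBayes with a trend, R 4.3.3), a two-sided contrast of SAHH-het with SAHH-WT in a fit of all 9 libraries, called at an adjusted p under 0.05 and tested on simulated data. Exact permutation tests used scipy 1.17.1 in Python 3.11.15. The steps of the low values returned whole fragments, within 0.1, for 97.1 to 97.3% of the values in the 6 libraries. These fragments gave depths and a voom fit. FPKM are not counts, so the voom fit was an alternative only. Positions came from GENCODE M21 (GRCm38, which mm10 names), which matched 54495 of 54532 genes, and promoter sequences from RefSeq (GRCm38.p6).

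The comparison, its 50 gene lists (581 genes, 544 tested) and the tests were chosen with earlier results of these data known. Named genes were Ahcy, Apoe, the called genes, the 10 of smallest p and the 5 of largest change per direction among genes with no overlap and a mean of at least 1 FPKM, genes present in 1 group only (at least 1 FPKM in all 3 libraries, under 0.1 FPKM in the other 3), the 3 genes highest in each library, and from each list the 2 of smallest p and the 2 of highest mean. Other list members and neighbours were named after their values were seen. Marker genes counted as single-library genes reached at least 5 FPKM and 8 times the highest other library, after adding 0.5 FPKM to both.

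Libraries of the 2 groups with the same number deviated together (correlation of deviations 0.29, 0.23 and 0.18 for numbers 1 to 3, against -0.33 to 0.10 for other pairs), so the numbers may pair the samples. This possible pairing rests on the data, not on the labels, and the part of tissue content shared by same-numbered libraries was not tested. The main fit, with its calls, adjusted p-values and intervals, had no block, and fits with a block were alternatives that called other numbers of genes. Alternatives changed the pseudocount, filter, scaling, block, libraries, weights, covariates and test.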

Additional observations from a re-analysis of the deposited data

How the results depend on the processing

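Of the 4 genes called by limma, the count became 7 with no filter on low values, 2 after TPM rescaling, 1 with only the 6 libraries in the fit and 1 with the B and plasma cell markers as a covariate. With a replicate block in all 9 libraries 1 gene was called, and with the block in the 6 libraries limma called 0 (1566 at an unadjusted p under 0.05), where Apoe kept its log2 difference of 5.36 at an adjusted p of 0.0568, in a range of 0.00014 to 0.0568 over its 24 alternatives. voom, with no block, called 4. Leaving out 1 library at a time gave 1 to 9 calls. Without SAHH-WT 1 and SAHH-het 1 together, an alternative chosen after seeing the data, 2 genes were called, Apoe and mt-Tg. The causes were not tested. Apoe was called under 23 of the 24 alternatives, Apoc1 under 16, Map3k6 under 12, Gstt2 under 10 and mt-Tg under 8. The log2 difference of Ahcy ran from -1.38 to -0.75 with adjusted p-values of 0.136 to 0.585. None of these genes changed direction under any alternative, although calls were lost and gained as counted here. Several list medians did change sign. With the brown adipocyte markers as a covariate, the fatty acid oxidation median went from 0.87 to -0.11 and the adrenal cortex median from -3.11 to 0.40. With 3 libraries a group and mixed tissues, differences of low genes and of genes of fat, muscle, adrenal or lymphoid tissue were not detectable at the threshold unless far larger than the spread between libraries.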

Other observations

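Sympathetic nerve genes varied between libraries of 1 group. Slc6a2, the noradrenaline transporter, stood at 2.42, 0.168 and 18.2 FPKM in SAHH-WT 1 to 3 and at 40.03, 0.890 and 43.7 FPKM in SAHH-het 1 to 3. Th, tyrosine hydroxylase of catecholamine synthesis, measured 174, 0.0236 and 18.1 FPKM against 79.3, 1.18 and 36.1 FPKM. Library 2 was the lowest of each group for both genes, and SAHH-WT 1, with the adrenal markers, was the highest for Th. These genes were chosen after their values were seen.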
